A study of Rattus norvegicus with 44 samples.

Results

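The kidney cortex of 15-day-old male rats labelled heterozygous for Xdh, that is with 1 altered allele, was compared with that of wild-type males of the same age. The 4 libraries labelled PND15_Het (postnatal day 15, heterozygous) were set against the 4 labelled PND15_WT (wild type), which are 8 of the 44 libraries of the study. Genes with a level of at least 1 FPKM in 3 or more of these 8 libraries were the members, 14264 of the 32545 genes listed. FPKM counts fragments relative to gene length and library size, so levels are per length. The study took litters at postnatal days (PND) 0, 5, 15 and 21 and sequenced poly-A RNA of the cortex from WT, Het and homozygous (Homo) animals, as its title says to ask what Xdh does in kidney maturation. The PND15_Homo group (n = 4), PND5_WT (n = 3), PND5_Het (n = 4), PND21_WT (n = 3) and PND21_Het (n = 4) are used below for reference. The sources used here name neither the strain nor the kind of Xdh allele, no drug or other treatment is named, and the labels do not tie an animal to a litter. Where animals share a litter, p-values measure partly the spread within litters.

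Xdh encodes xanthine dehydrogenase, the molybdenum enzyme that turns hypoxanthine into xanthine and xanthine into urate, the last steps of purine breakdown before uricase. Loss of both copies leads to xanthine accumulation, and the kidney, which concentrates poorly soluble xanthine in the tubule, is the organ known to suffer. In rats the cortex is still maturing in the third week of life: nephron formation has ended, and tubule transport, metabolism and urine concentration are being acquired before weaning.

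The libraries held 13643981 to 18142414 reads on genes, and the mitochondrial share of reads was 8.92 ± 0.927% in Het and 8.41 ± 0.828% in WT (SD, n = 4 each). The markers of cortex were at high levels in all 8 libraries: Lrp2, the endocytic receptor of the proximal tubule, at 205 to 251 FPKM, Umod of the thick ascending limb at 708 to 1229, and Nphs1 of podocytes at 16.2 to 24.3. PND15_Het replicate 2 stood apart from the other 7. It lay at 47.3 on the first principal component, which carried 31.7% of the variance, where the others lay between -15.2 and 2.1. It also had the lowest median correlation with the other libraries (Pearson r of 0.961 across genes, against at least 0.974 for each of the others). Its Aqp2, the water channel of the collecting duct, was at 408 FPKM against 93.2 to 122.1 in the other Het libraries, and its Fkbp5, a glucocorticoid target, at 33.4 against 7.17 to 8.57. Results below that rest on this library are given with and without it. Pelvic tissue also varied. Upk3a, which marks the urothelium of the renal pelvis, was at 11.8 and 11.5 FPKM in WT replicates 3 and 4 and at 8.70 in Het replicate 2, but at 0.0733 to 2.01 in the other Het libraries and at 5.20 and 2.42 in WT replicates 1 and 2.

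Xdh itself was lower in Het. Xdh (ENSRNOG00000007081, chromosome 6, 25149235 to 25211494, minus strand, in coordinates of the deposited table, for which the sources used here name no build) stood at 8.95, 13.2, 11.2 and 10.4 FPKM in Het and at 17.8, 14.1, 14.2 and 16.9 in WT. Every Het library lay below every WT library. The means were 10.9 ± 1.78 and 15.7 ± 1.88 (SD, n = 4 each), so Het held 69.4% of the WT level. The difference was -0.49 ± 0.12 on the log2(FPKM + 1) scale (SE; 95% interval -0.77 to -0.22). A two-sided exact permutation test gave p = 0.0286, the smallest that 4 against 4 libraries allow, and 0.0857 after adjustment over 3 ages. Across all genes Xdh missed the test (limma, unadjusted p = 0.00275, adjusted p = 0.875).

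Xdh was ordered by genotype at PND15. The Homo libraries held 6.46, 4.95, 8.03 and 2.87 FPKM, 35.4% of WT, each below every Het library. The Het level was 70.1% of WT at PND5, where the groups overlapped (two-sided exact permutation p = 0.114), and 54.5% at PND21, where they did not (two-sided exact permutation p = 0.0571). The difference between Het and WT was not shown to vary between PND15 and PND21 (contrast 0.36 ± 0.23 log2 (SE), limma adjusted p = 0.79). WT held 4.18 ± 0.627 FPKM at PND5 (SD, n = 3) and 24.2 ± 1.68 at PND21 (SD, n = 3), so the Het mean of PND15 lay between WT of PND5 and WT of PND15. The genotype order did not hold everywhere: at PND0 1 library labelled Het and 2 labelled Homo held 26.8, 22.5 and 11.7 FPKM, above each WT library of that age, and at PND21 the Homo mean of 16 exceeded the Het mean of 13.2.

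**Figure D1:**
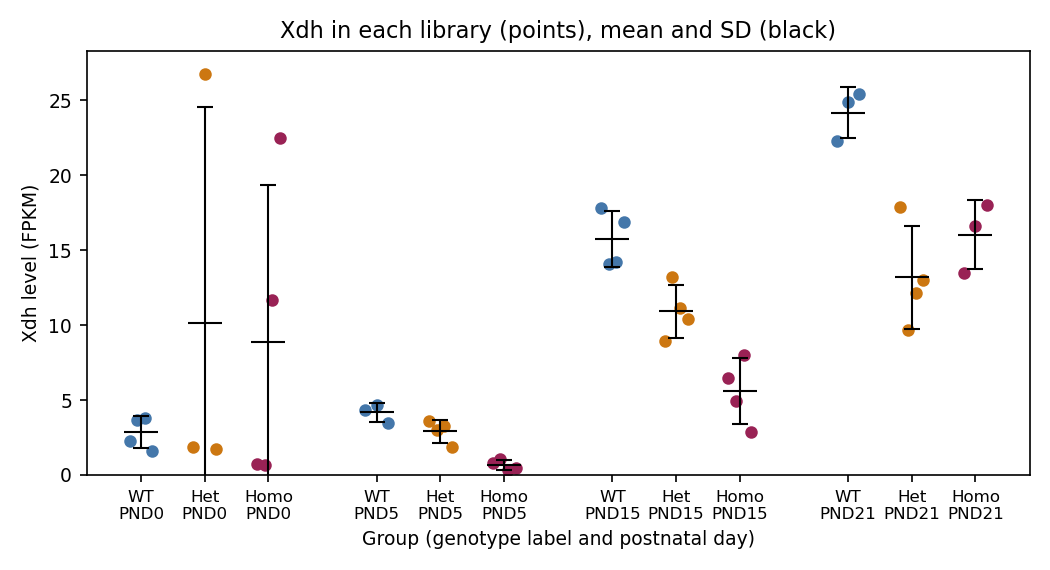
Xdh level in FPKM in each of the 44 libraries, by genotype label and postnatal day; points are libraries, black bars the mean and SD. At PND15 the Het libraries (8.95 to 13.2) lie between the Homo libraries (2.87 to 8.03) and the WT libraries (14.1 to 17.8) without overlap.

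Enzymes related to Xdh did not pass the test, and neither did any other of the 14264 genes tested. Aox1, an aldehyde oxidase, stood at 2.81, 3.78, 3.16 and 4.07 FPKM in Het and at 2.82, 2.54, 2.20 and 2.60 in WT. The difference was 0.33 ± 0.12 log2 (SE, limma adjusted p = 0.875), with Het replicate 1 just below the highest WT library. Aox2 differed by 0.19 (95% interval -0.09 to 0.47). Of the genes that build the molybdenum cofactor, Mocs1 differed by 0.16 (-0.08 to 0.39), Mocs2 by 0.17 (-0.04 to 0.38), Mocs3 by -0.08 (-0.28 to 0.12) and Gphn by 0.11 (-0.08 to 0.31). Mocos, the sulfurase that activates Xdh and the aldehyde oxidases, differed by 0.18 (-0.12 to 0.49). All these intervals lie inside -1 to 1 on the log2(FPKM + 1) scale, and for the genes named in this paragraph other than Aox1 they include 0.

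In the rest of purine metabolism no gene passed the test. Since 0 of all 14264 genes tested passed, this is not particular to purine genes. Of 24 tested genes of purine breakdown, 0 were called. At a limma unadjusted p under 0.05, 3 were higher and 1, Xdh itself, was lower. Over all genes tested 2.73% were higher and 2.47% lower at that level, so higher genes made up more of this list. Its median was 0.06 log2, against 0.00 over all genes tested. Of 19 genes of purine synthesis and salvage, 0 were called (median 0.05). Gmps, which makes GMP, was the member with the smallest p: it held 22.2, 22.9, 21.8 and 20.7 FPKM in Het and 19.4, 20.3, 20.3 and 20.4 in WT, higher in 4 of 4 Het libraries by 0.12 log2 (limma adjusted p = 0.875). Hprt1, which returns hypoxanthine and guanine to the nucleotide pool, could not be compared. It was listed at 26.3, 0.323, 1.14 and 0.785 FPKM in Het and at 0.216, 14.5, 0.303 and 10.2 in WT, and its values split in the same way within other groups, such as 0.0979, 24.9 and 0.744 in PND21_WT. The interval of its difference ran from -3.02 to 2.52 log2.

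Among all 14264 genes tested, limma called 0 at an adjusted p under 0.05 (0% of genes). At an unadjusted p under 0.05 there were 742 genes (5.2%), 390 higher (2.73%) and 352 lower (2.47%) in Het. With every library rescaled to the same sum (TPM) the split was 267 higher and 457 lower, with 0 called and the median of all genes at -0.04 log2. The balance of directions thus turned with the scaling. Voom on recovered reads also called 0 after adjustment. The groups did not overlap for 488 genes (3.42%), 256 of them higher (1.79%) and 232 lower (1.63%) in Het. The median difference over all genes was -0.001 log2, and 9 in 10 genes lay between -0.31 and 0.28. The data limit the size of differences for most genes on the log2(FPKM + 1) scale. The 95% interval lay inside -1 to 1 for 13178 genes (92.4%), with a median distance of 0.24 from the estimate to either bound. An absolute difference over 1 on this scale was measured for 86 genes. The added 1 shrinks differences at low levels, so 1 on this scale is about a 2-fold change only for genes well above 1 FPKM. Of the genes tested, 10341 had a mean of at least 5 FPKM. In bulk tissue, fewer cells of a type and less RNA per cell cannot be told apart.

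**Figure D2:**
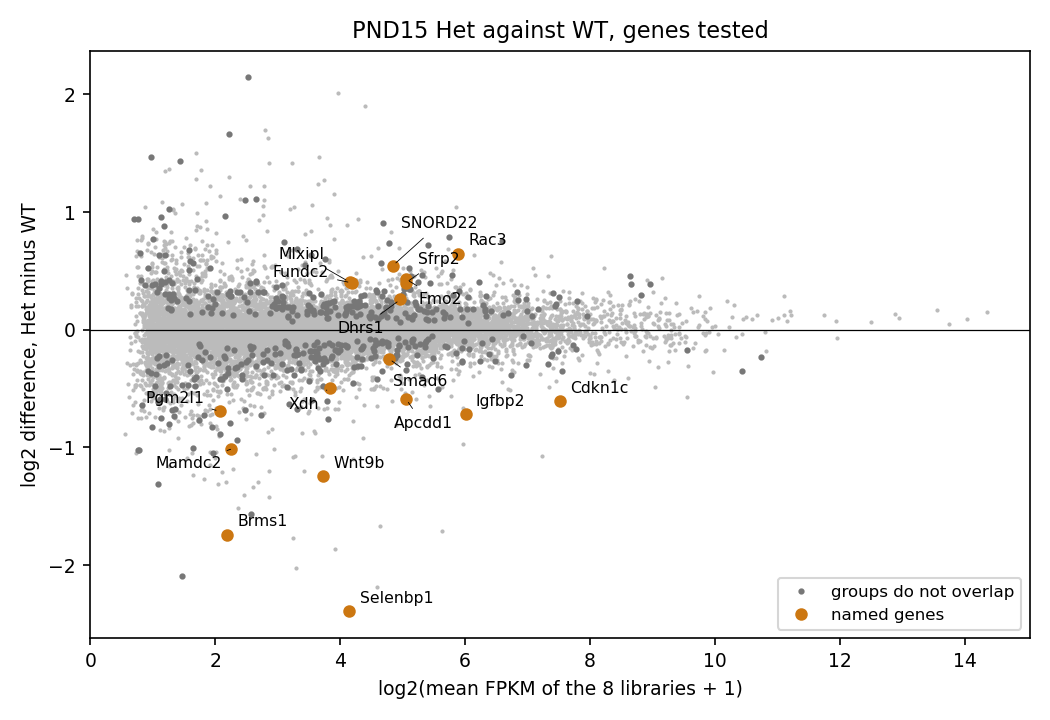
Difference between Het and WT at PND15 (log2(FPKM + 1), y axis) against the mean level (x axis) for the genes tested; dark points are the 488 genes whose groups do not overlap, orange points the named genes. The points spread evenly about 0, with 0 genes called after adjustment.

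The genes described next were the 8 per direction with the smallest unadjusted p among genes at 5 FPKM or more in the higher group and with groups that do not overlap, together with Xdh, Mamdc2 and Pgm2l1. Each missed the test at an adjusted p of 0.875 (limma), so the values are descriptions of these 8 libraries. Since the absence of overlap was part of the choice, it is not read as support.

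Wnt and BMP proteins are 2 families of secreted signals that shape the nephron, and 3 of the genes lower in Het act in them. Wnt9b (chromosome 10, 91785893 to 91807937), a ureteric bud signal that induces nephrons and later orients tubules, held 8.72, 6.60, 5.26 and 5.73 FPKM in Het and 11.6, 11.5, 27.8 and 20.4 in WT, 36.8% of WT on the means (-1.24 ± 0.28 log2, SE). The WT libraries themselves split, with replicates 3 and 4 far above replicates 1 and 2. Apcdd1, a membrane inhibitor and target of Wnt signalling, held 26.0, 29.0, 20.5 and 26.3 in Het and 31.7, 35.5, 45.0 and 43.3 in WT (-0.59 ± 0.13 log2, SE). Smad6, which blocks BMP signals inside the cell, was measured very evenly, at 23.4 to 24.6 FPKM in Het and 28.4 to 28.8 in WT, a small difference of -0.24 ± 0.05 log2 (SE).

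Igfbp2 (chromosome 9, 80118029 to 80144789), a secreted protein that binds insulin-like growth factors, had the smallest unadjusted p of the named genes. It held 41.9, 46.2, 50.0 and 52.0 FPKM in Het and 72.0, 68, 94.2 and 81.8 in WT, 60.1% of WT on the means. The difference was -0.72 ± 0.11 log2 (SE; 95% interval -0.97 to -0.46). Cdkn1c, the cell cycle inhibitor p57 found in podocytes, held 155, 116.1, 147 and 156 FPKM in Het and 182, 208, 255 and 235 in WT, 65.3% of WT. Both genes had lower levels in older WT animals: Igfbp2 stood at 156, 175 and 172 FPKM at PND5 and at 33.8, 35.6 and 37.5 at PND21.

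Mamdc2 and Pgm2l1 are the 2 genes that passed when the spread was estimated from all 44 libraries (limma adjusted p = 0.029 for each), and they passed in no other fit. Mamdc2 (chromosome 1, 241072072 to 241155537), an extracellular matrix proteoglycan, held 2.14, 2.32, 1.40 and 2.45 FPKM in Het and 3.36, 4, 7.53 and 6.74 in WT, 38.4% of WT. The same WT replicates 3 and 4 that are high in Wnt9b are high here. Pgm2l1 (chromosome 1, 165237847 to 165286980), the synthase of glucose 1,6-bisphosphate, the cofactor of phosphoglucomutases, held 2.78, 1.90, 1.97 and 2.24 in Het and 3.46, 4.55, 4.38 and 4.43 in WT, 52.9% of WT (-0.69 ± 0.12 log2, SE). The WT libraries are close to each other here, apart from replicate 1. Pgm2l1 rested on at most 324 reads per library and Mamdc2 on 37 to 238. A gene on the same strand overlaps Pgm2l1, at a mean of 4.18 FPKM in Het and 7.17 in WT, and reads of the overlap could be assigned to either. None of Pgm1, Pgm2, Pgm3 and Pgm5, named for their symbols, passed after adjustment. Pgm1 differed by 0.17 (95% interval 0.01 to 0.33, which leaves out 0) and Pgm2 by 0.03 (-0.17 to 0.22). Pgm3 differed by 0.02 (-0.34 to 0.38) and Pgm5 by 0.07, with a wide interval (-0.62 to 0.75).

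The other 2 named genes with lower values varied widely between animals in other groups too. Selenbp1, a methanethiol oxidase that binds selenium, held 12.5, 3.14, 2.32 and 2.93 FPKM in Het and 29.6, 44, 14.6 and 24.6 in WT, but also 1.51, 13.6, 7.26 and 1.74 in Homo, and at PND5 Het lay higher (10.2 to 26.6) than the 1.42 and 4.60 of WT replicates 1 and 2, with 18.2 in replicate 3. Its symbol stands for a pair of rows in the table. Brms1, a subunit of a histone deacetylase complex, held 0.374, 0.562, 2.86 and 0.76 in Het against 8.63, 8.21, 3.43 and 3.66 in WT. At PND21 its WT libraries held 0.306, 0.364 and 10.6, so the range within one group was wider than the gap at PND15. Brms1 rested on as few as 7 reads.

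Among the genes higher in Het was Rac3, a small GTPase of cell signalling. It held 91.6, 76.1, 55.7 and 61.3 FPKM in Het and 48.7, 49.6, 40.2 and 39.7 in WT. The Homo libraries of Rac3 lay on the other side, at 16.5 to 34.7.

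The other genes reported on this side differed by less than 0.6 log2. Sfrp2, a secreted modulator of Wnt signals, was almost constant in Het (36.4, 36.2, 37.2 and 35.9 FPKM) and lower in WT (24.3, 32.0, 24.4 and 29.7). Mlxipl, the carbohydrate-responsive transcription factor ChREBP, held 16.5 to 21.0 in Het and 11.8 to 16 in WT. Fmo2, a flavin monooxygenase, held 31.2 to 44.5 in Het and 25.6 to 28.8 in WT. Fundc2, a mitochondrial membrane protein, held 18.2 to 21.5 against 12.9 to 17.1, and Dhrs1, a short-chain dehydrogenase, 31.7 to 34.8 against 26.9 to 28.6. SNORD22, a small nucleolar RNA gene of 126 bases, held 28.1 to 37.6 against 17.9 to 25.4 and rested on 37 to 66 reads. Mature small nucleolar RNAs carry no poly-A tail, and the libraries were made from poly-A RNA.

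**Figure D3:**
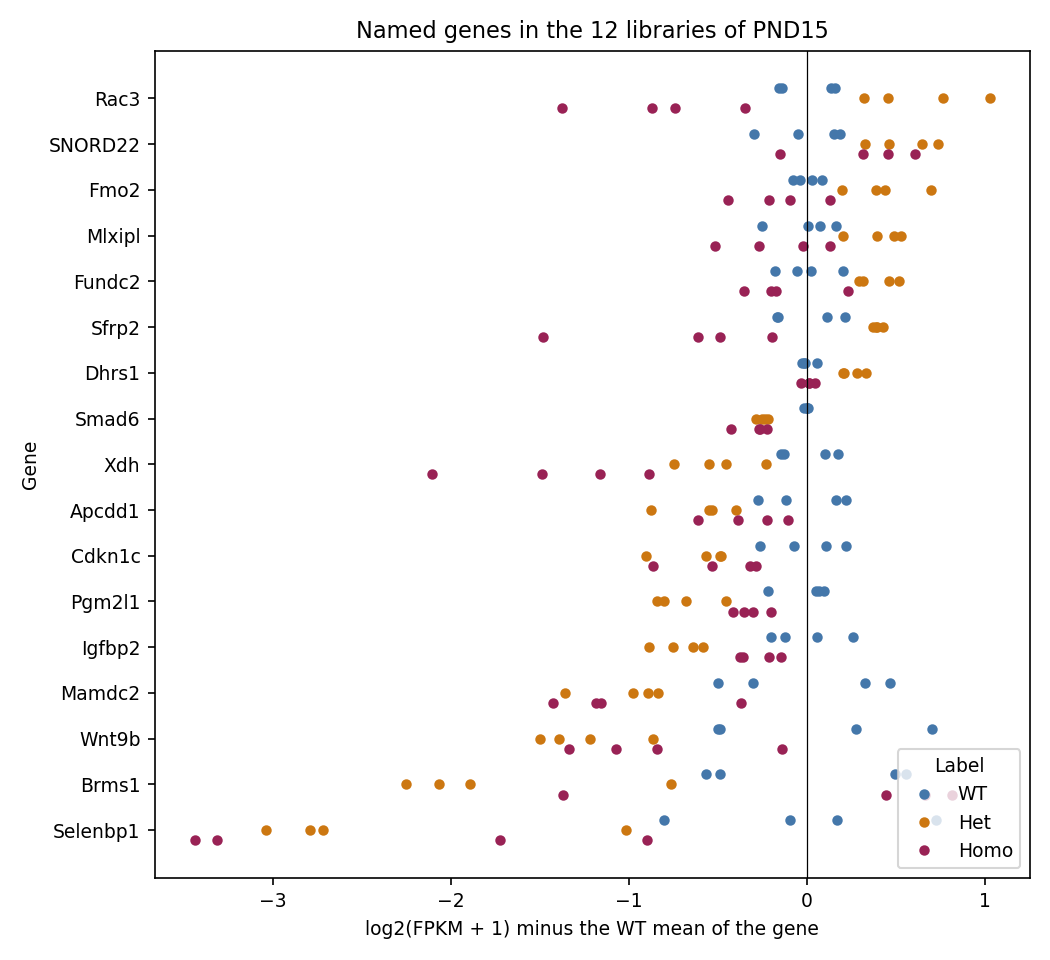
Named genes in the 12 libraries of PND15, as log2(FPKM + 1) minus the WT mean of each gene; points are libraries, coloured by genotype label. WT and Het do not overlap for any gene shown, which is partly how they were chosen, and Homo lies beyond Het for Xdh but on the other side of WT for Rac3 and Sfrp2.

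The differences were then read at 2 other ages, in animals that did not choose the genes. Of the 16 genes taken by smallest p, 6 lay in the same direction at PND21 and 10 at PND5, and 4 at both. Of the 488 genes that did not overlap at PND15, 46.9% had the same direction at PND21 and 51.4% at PND5, where all genes tested gave 51.8% and 49.2%. limma called 0 genes in Het against WT at PND5 (223 at an unadjusted p under 0.05, 1.56%) and 0 at PND21 (927, 6.5%). Mamdc2 held 1.51, 2.44, 1.60 and 1.80 FPKM in Het of PND21 and 1.98, 1.73 and 1.35 in WT, and Pgm2l1 1.78, 1.38, 1.05 and 1.29 against 1.63, 1.52 and 1.25, with overlap for both. The contrast of the gap at PND15 with that at PND21 was -1.09 ± 0.28 log2 for Mamdc2 (SE, limma unadjusted p = 0.000802, adjusted p = 0.742), and 0 genes were called in this contrast (939 unadjusted, 6.58%) or in that with PND5 (489 unadjusted, 3.43%). Smad6 lay lower in Het at PND15 and higher at PND21 (0.24 ± 0.09 log2 (SE), limma adjusted p = 0.742), when its levels were 16.3 to 21.5 FPKM in Het and 13.5 to 18.3 in WT. Igfbp2 was level at PND21, with means of 35.5 and 35.6 FPKM.

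Injury genes of the tubule were near WT in Het. Of 30 tested genes that injured tubule cells switch on, 0 were called, 7 lay higher and 23 lower, with a median of -0.09 log2, and the interval lay inside -1 to 1 for 28 of them. The other 2 were S100a6 and Gdf15. Havcr1, kidney injury molecule 1, held 1.93, 0.833, 1.36 and 1.37 FPKM in Het and 0.799, 1.75, 1.15 and 1.12 in WT, while the Homo libraries of the same age held 95.1, 37.3, 49.0 and 29.2. Lcn2, a siderophore-binding protein, held 4.70 to 9.40 in Het, 5.84 to 8 in WT and 56.4 to 218 in Homo. The difference between Het and WT was 0.10 log2 for Havcr1 (95% interval -0.33 to 0.54) and 0.11 for Lcn2 (-0.31 to 0.54). Clu, clusterin, had the smallest p on the list and was higher in 4 of 4 Het libraries by 0.28 log2 (0.08 to 0.48), and Krt8, a keratin of collecting duct and injured tubule, was lower in 4 of 4 by -0.22 (-0.40 to -0.05). Neither passed after adjustment. Without Het replicate 2 the injury list stood at 12 higher and 18 lower (median -0.04). None of 19 macrophage and dendritic cell genes was called by limma. Of these 10 lay higher (median 0.00 log2), and 16 of 19 without Het replicate 2 (median 0.08), while with TPM the median was -0.02. The 18 cytokine genes had 0 calls. Of these 7 lay higher (median -0.02), and 12 of 18 without Het replicate 2 (median 0.04).

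In 40 gene lists written from general knowledge, 0 members were called in any, so the lists are described by direction and median; with TPM the median of each whole list described from here on kept its sign. Genes of proximal tubule metabolism lay higher in Het for 29 of 30 members, with a median of 0.17 log2 against 0.00 over all genes, and for 27 of 30 with the same median of 0.17 without Het replicate 2. In every list a symbol with more than 1 gene entry is counted at each. The 30 members here stand for at most 28 symbols, and the 32 of oxidative phosphorylation below for at most 30. Miox, the oxygenase that breaks down inositol in the proximal tubule, held 488, 561, 395 and 391 FPKM in Het and 357, 386, 364 and 287 in WT. Het replicates 1 and 2 were the highest, and replicates 3 and 4 exceeded the highest WT library only narrowly. Carriers of urate and organic anions lay higher for 20 of 23 members (median 0.22; 20 of 23 and 0.14 without Het replicate 2). Slc17a3, a urate exporter of the apical membrane, held 39.0, 69.0, 41.1 and 34.6 in Het and 33.7, 32.9, 30.0 and 30.5 in WT. Slc22a12, the urate reabsorber URAT1, held 168, 197, 119.2 and 137 against 129, 149.01, 125 and 107, with overlap. Slc2a9, the other main urate carrier, differed by 0.05 ± 0.11 log2 (SE).

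Genes of glutathione and the NRF2 antioxidant response lay higher for 24 of 26 members (median 0.17), but for 16 of 26 (median 0.04) without Het replicate 2. Gclc, which limits glutathione synthesis, held 553, 572, 377 and 355 FPKM in Het and 347, 352, 341 and 289 in WT. Osgin1, an oxidative stress response gene, held 42.9, 52.2, 30.2 and 34.3 against 27.9, 28.4, 26.5 and 24.5 (0.53 ± 0.15 log2, SE; limma adjusted p = 0.875). In Homo both lay on the other side of WT, Gclc at 80.5 to 250 and Osgin1 at 8.85 to 18.7. Targets of glucocorticoids lay higher for 19 of 21 (median 0.30; 19 of 21 and 0.13 without Het replicate 2), with Mt1, metallothionein, at 470 to 773 FPKM in Het and 395 to 547 in WT.

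Cell cycle genes turned with a single library. They lay lower in Het for 33 of 34 members, with a median of -0.23 log2, and without Het replicate 2 they lay higher for 28 of 34, with a median of 0.07. Their summed level was 307 FPKM in that library, 593 to 671 in the other Het libraries and 554 to 617 in WT. Oxidative phosphorylation genes lay higher for 32 of 32 (median 0.11), and for 23 of 32 (median 0.02) without that library. One of them, Ndufa1, was at 38.6 ± 60.8 FPKM in Het and 1.52 ± 0.872 in WT (SD, n = 4 each), a spread beyond its mean. Fibroblast and matrix genes lay lower for 24 of 28 (median -0.25), and for 16 of 28 (median -0.01) without it.

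Urothelial genes lay lower in Het for 10 of 10 tested members (median -1.18 log2; 10 of 10 and -1.68 without Het replicate 2), with 0 called. Their summed level was 163, 253, 153 and 180 FPKM in Het and 211, 203, 321 and 284 in WT. Of the list, Ly6d was at 0 in all 8 libraries, and the defining Upk3a spanned 0.0733 to 8.70 FPKM in Het and 2.42 to 11.8 in WT. The highest WT libraries on this list, replicates 3 and 4, are also the highest WT libraries in Wnt9b, Mamdc2, Igfbp2, Apcdd1 and Cdkn1c. Het replicate 2 exceeded WT replicates 1 and 2 in the sum of the list (253 against 211 and 203). It lay below both in each of these genes, which their choice by absence of overlap required. The part of pelvic and medullary tissue in these differences was not tested. Genes of the osmotic response and inner medulla lay lower for 11 of 18 members (median -0.10 log2), and for 14 of 18 without Het replicate 2 (median -0.44), with 0 called. Their summed level was 7438 FPKM in that library, 4951 to 5274 in the other Het libraries and 4844 to 5780 in WT. Genes of other tissues that a dissected kidney can carry were at 50.5 to 536 FPKM in sum for fat in Het and 56 to 339 in WT, and 56.8 to 79.9 against 48 to 58.1 for the adrenal, with Elovl3 of fat and Akr1b7 and Cyp11b2 of the adrenal at 0 in all 8 libraries and Th at or below 0.121.

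**Figure D4:**
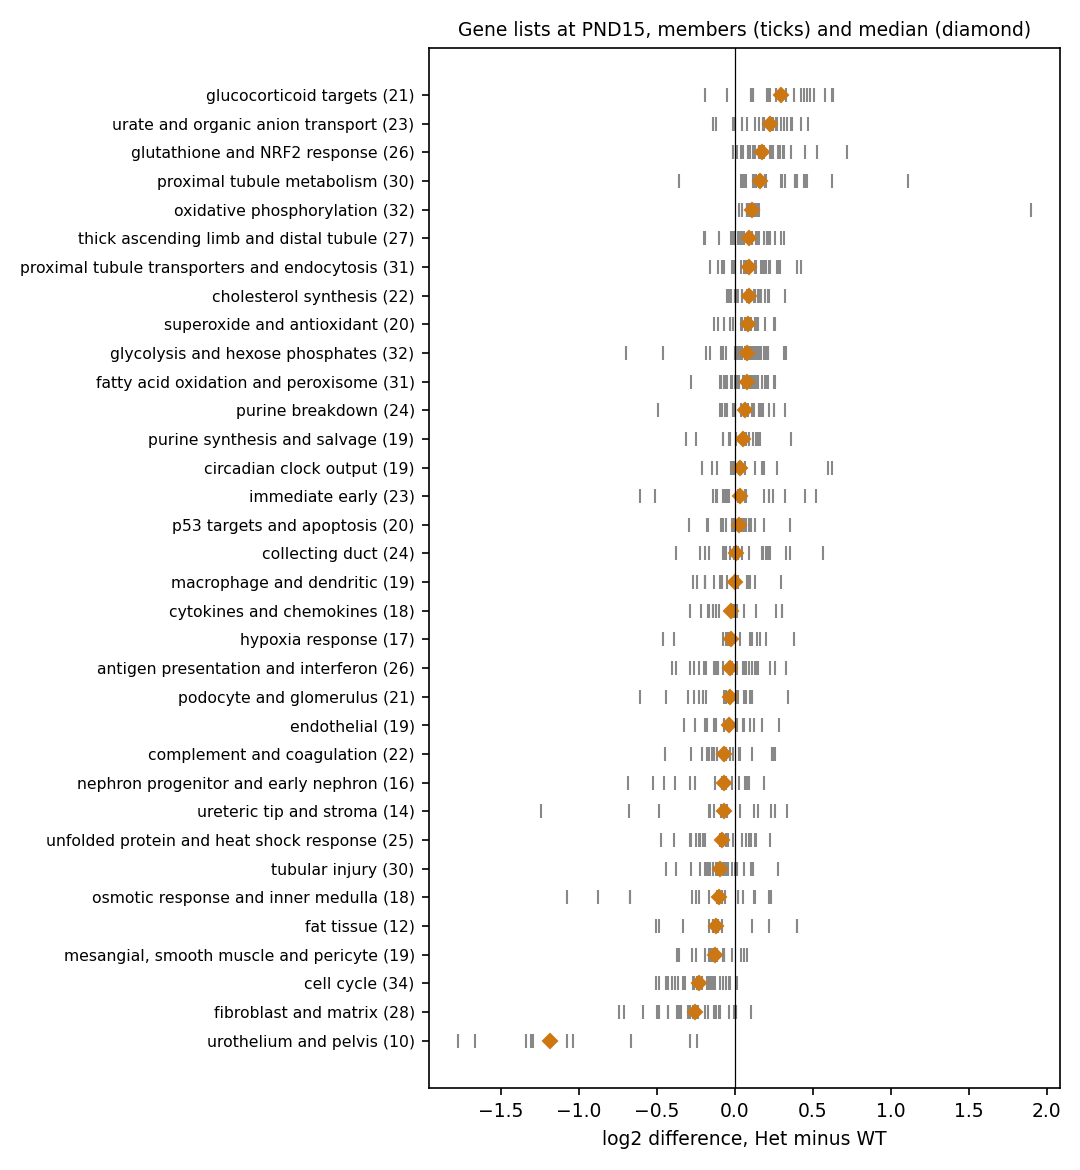
Difference between Het and WT at PND15 for the members (ticks) and the median (diamond) of gene lists with at least 10 members tested, whose number stands in parentheses. Medians run from -1.18 (urothelium and pelvis) to 0.30 (glucocorticoid targets, 0.13 without Het replicate 2).

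Lists of Wnt and BMP pathway genes were written after Wnt9b, Apcdd1 and Smad6 had been seen, and are given as a description. Of 51 tested Wnt genes, 33 lay lower and 18 higher (median -0.07 log2), with 0 called, and 30 lower and 21 higher without Het replicate 2 (median -0.03). Their ligands lay lower for 8 of 10, and the BMP ligands for 3 of 7. Without Het replicate 2 the ligands of both lists were counted only together: 9 lay lower and 8 higher (median -0.0008 log2). Wnt4, a signal of early nephrons and stroma, held 5.22, 4.55, 3.99 and 6.06 FPKM in Het and 6.07, 6.22, 7.40 and 7.25 in WT. Wnt11, expressed at ureteric tips, held 3.68 to 9.14 against 10.3 to 11.4, with Het replicate 2 lowest. Wnt7b, a ureteric signal to the medulla, overlapped: 8.24, 19.8, 6.24 and 7.35 against 8.97, 10.4, 19.7 and 17.8.

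The feedback targets, genes that Wnt signalling switches on to limit itself, lay lower for 6 of 6, with a median of -0.48 log2 (-0.51 without Het replicate 2), and 3 of them did not overlap. Over all genes tested 1.63% were lower without overlap; the list was written with such genes in view, so nothing is read from this count. Axin2, the most widely used such target, held 5.72, 6.32, 5.15 and 5.17 FPKM in Het and 6.84, 6.87, 7.83 and 8.91 in WT (-0.38 ± 0.10 log2, SE; limma adjusted p = 0.875). Nkd2 held 6.88 to 8.64 against 9.66 to 11.2. Wnt receptors lay lower for 8 of 14 (median -0.06), and cytoplasmic and nuclear components for 8 of 13 (median -0.05). At PND21 Axin2 differed by -0.26 and Nkd2 by 0.25 log2, so the targets did not share a direction there.

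Of 32 tested BMP genes, 23 lay lower (median -0.05), with 0 called, and 19 without Het replicate 2 (median -0.01). The Smad genes lay lower for 5 of 5, and for 4 of 5 without Het replicate 2 (median -0.16 and -0.05). Smad7, the other inhibitory Smad, held 23.1, 16.2, 22.4 and 23.7 FPKM in Het and 27.2, 27.3, 24.3 and 30.7 in WT. Receptors had a median of -0.03 and ligands of 0.03. Gdf7, a ligand, held 1.74, 1.41, 1.86 and 2.84 against 3.98, 3.82, 3.8 and 6.30 (-0.88 ± 0.19 log2, SE; limma adjusted p = 0.875).

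The stage of kidney maturation was read with a score built from WT libraries of other ages. It is the mean log2(FPKM + 1) of the 200 genes that rise most from PND5 to PND21 in WT minus the mean of the 200 that fall most. It was -0.951 ± 0.0498 in WT of PND5 and 3.47 ± 0.199 in WT of PND21 (SD, n = 3 each, the libraries that chose the genes). At PND15 Het scored 2.05, 2.45, 1.65 and 1.54 and WT 1.61, 1.60, 1.32 and 1.18. The groups overlapped, since Het replicate 4 lay below WT replicates 1 and 2. The means were 1.92 ± 0.414 and 1.43 ± 0.217 (SD, n = 4 each), a difference of 0.494, which was 0.319 without Het replicate 2. Homo scored 0.71 ± 0.264 (SD, n = 4), with each Homo library below each WT library. Of the 200 rising genes 172 lay higher in Het than in WT and of the 200 falling genes 174 lay lower, with 0 called in either set. These counts were not redone without Het replicate 2, which had the highest score at PND15. At the other ages the Het means were -0.76 ± 0.149 at PND5 and 3.33 ± 0.107 at PND21 (SD, n = 4 each). WT libraries of those ages chose the genes, so their gaps to Het cannot be set beside the gap at PND15.

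**Figure D5:**
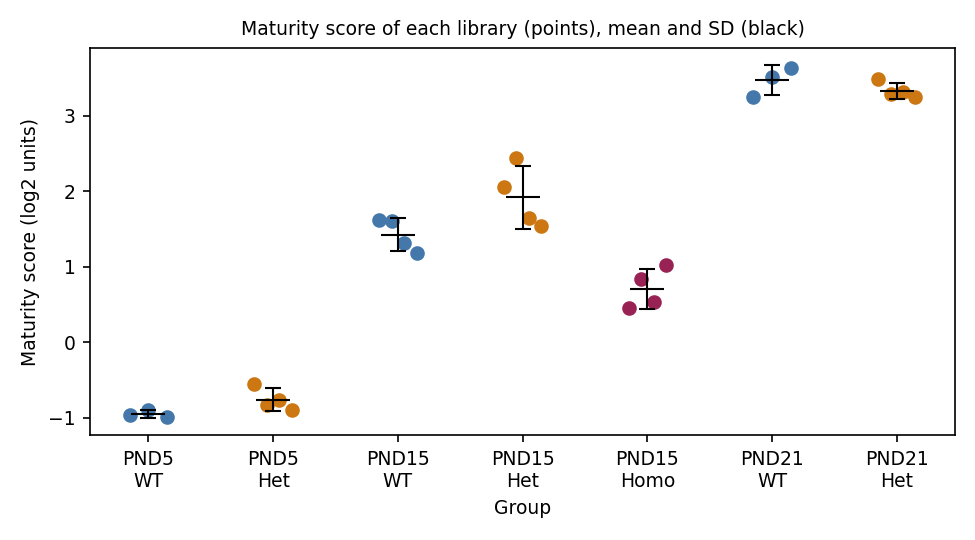
Maturity score (log2 units, y axis) by group; points are libraries, black bars the mean and SD. At PND15 Het (1.54 to 2.45) and WT (1.18 to 1.61) overlap, and Homo (0.454 to 1.02) lies below both.

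The genes around Xdh and those that follow it were also read. Of 76 tested genes within 5 Mb of Xdh, 2 did not overlap between Het and WT, which is 2.63% against 3.42% of all genes tested, and 0 were called (median 0.00). The 5 genes most like Xdh over the 8 libraries were Snrnp200, Sh3bp5l, Mtpn, Extl3 and Rai1, with Pearson r between 0.914 and 0.93 of log2(FPKM + 1). These points share the difference between groups. Within the Het libraries alone r was 0.821 to 0.939, and within WT it ranged from -0.284 for Sh3bp5l to 0.952 for Extl3. Each of these values rests on 4 of the 8 libraries that chose the genes, so nothing is read from them. The differences of the 5 genes between Het and WT were small, from -0.09 log2 for Snrnp200, a helicase of the spliceosome, to -0.21 for Rai1.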

How the data were processed

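FPKM values of all 44 libraries, made by the authors, stand in 1 deposited table. Among the tools in the submitters' processing notes are HISAT2 2.0.5 and featureCounts 1.5.0-p3, besides StringTie 1.3.3b and fastp; their roles are not stated. The FPKM, multiplied by gene length and a factor particular to each library, gave whole reads (within 0.01 read) in 100% of values. Whether libraries kept strand is not stated, so overlapping genes may share reads. Replicates were numbered in record order. Counts between replicates differed beyond counting error (chi-square per degree of freedom 7.15 to 42.1 over 12 pairs).

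From these values, log2(FPKM + 1) of the 8 libraries was tested with limma 3.58.1 (trended, robust; statmod 1.5.0, R 4.3.3), adjusting by Benjamini-Hochberg over 14264 genes and calling at 0.05. Other ages came from a fit of 6 group means (PND5, PND15 and PND21, WT and Het). Xdh was also tested by exact permutation. The method was checked on simulated data with 200 changed genes, drawn from genes with many reads and with independent noise. Of genes changed 1.5-fold, 61.5% were called in the right direction, with 10 false calls among 133 calls. Of genes changed 2-fold, 91% were, with 12 false calls among 194. Smaller changes, and changes in genes with few reads, were not simulated.

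The members, the 40 lists (1014 entries, 968 matched, 805 tested) and the naming rule were chosen with earlier results of these data known. The rule names Xdh, Mamdc2 and Pgm2l1, called genes by size, or up to 8 per direction by smallest unadjusted p with no overlap and a higher group at 5 FPKM or more, and the list member with the smallest p. 1 gene that the rule takes, and a list that holds it, are not reported here; counts over all genes include it. Other genes of the lists, such as Hprt1, Ndufa1, Krt8, Gclc, Slc17a3, Slc22a12, Slc2a9, Havcr1 and Lcn2, and the Wnt and BMP lists with their members, were picked after their values were seen. Alternatives are given in the closing section; leaving Het replicate 2 out of the lists, the lists under TPM, leaving each library out of the score, and the wider range of title numbers, came after seeing the data.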

Additional observations from a re-analysis of the deposited data

Results flagged for a closer look

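In 11 of 86 groups of 4 libraries, 1 library lay far from the other 3, by a gap over 0.829 of the range of the group; chance flags about 1 in 20 groups. 5 of the 11 were PND15_Het replicate 2, with Aqp2 at 408 FPKM, Upk1b at 5.39, Alb at 13.1, Fkbp5 at 33.4 and Wnt7b at 19.8, each the highest of the Het libraries. Among the named genes, Selenbp1 stood at 12.5 FPKM in Het replicate 1 against 2.32 to 3.14 in the others, Brms1 at 2.86 in Het replicate 3 against 0.374 to 0.76, and Pgm2l1 at 3.46 in WT replicate 1 against 4.38 to 4.55. Gdf7 stood at 6.3 in WT replicate 4, Alas2, the heme enzyme of red cell precursors, at 23 in Het replicate 4, and Th, an adrenal medulla marker, at 0.121 in WT replicate 1 with 0 in the other WT libraries.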

How the results depend on the processing

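limma called 0 genes in each alternative run except the fit with all 44 libraries, which called 2, Mamdc2 and Pgm2l1. These were TPM, median ratios, array weights, voom, a pseudocount of 0.1, the unfiltered table, genes of mean 5 FPKM or more, the 12 libraries of PND15, 6 groups, each library left out and Het replicate 3 as the lone Het library, which is then assumed to vary like WT. Xdh was lower in Het in all of them. Without any 1 of the 8 libraries its log2 difference was -0.582 to -0.411, and without any 1 WT library, at -0.543 to -0.436, the exact permutation p was 0.0571. With Het replicate 3 alone the difference was -0.454 (exact permutation p = 0.2). That setting keeps title numbers 60 to 68, those of WT and Homo; their meaning is not given. The planned range of WT numbers alone (60 to 66) gave no value, since 0 Het libraries lie in it. Xdh, Mamdc2, Pgm2l1 and the genes named by smallest p over all genes kept their direction; list members were not rerun singly. The count of genes at an unadjusted p under 0.05 was 742, with 390 higher, 724 with 267 higher under TPM, and 477 without WT replicate 4. The maturity difference was 0.604 with 100 genes per direction, 0.51 with TPM and 0.319 to 0.622 without 1 library. Depth limits Brms1, SNORD22 and Mamdc2 most. No paired analysis was possible because replicate numbers follow record order and the labels name no litter.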
